A study of Drosophila melanogaster with 18 samples.

Results

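The heat shock and cognate chaperone genes of Drosophila melanogaster were taken as every gene whose FlyBase symbol starts with Hsp or Hsc, which gave 25 of the 17529 genes in the count table. They comprised 6 near-identical Hsp70 genes, Hsp68, 6 small heat shock protein genes, the constitutive (cognate) Hsc70 genes Hsc70-1 to Hsc70-5, the co-chaperone gene Hsc20, and Hsp83, Hsp110 and the 4 Hsp60 genes. Of these, 10 lie on chromosome arm 3L, 9 on 3R, 3 on 2L, 2 on X and 1 on 2R. Messenger RNA was measured by RNA sequencing in cells sorted from eye-antennal discs, the larval epithelia that give rise to the adult eye, antenna and head capsule, from larvae of the third instar.

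Flies of every genotype were reared at 25°C and carried eyFLP, an eye-specific source of the FLP recombinase, with a cell-lethal mutation on an FRT82B chromosome. The other homologue was FRT82B scrib1 (scrib), FRT82B fosKM (fos), FRT82B CtBP87De-10 (CtBP), FRT82B scrib1 fosKM (scrib fos), FRT82B scrib1 CtBP87De-10 (CtBP scrib) or the plain FRT82B chromosome (control). Such a cross leaves tissue made largely of cells homozygous for the tested arm, but heterozygous cells and cells outside the reach of the eye enhancer remain. scrib encodes an apicobasal polarity protein, fos (kay in FlyBase) an AP-1 transcription factor and CtBP a transcriptional co-repressor. Each genotype had 3 libraries, numbered 1, 2 and 3, and RNA from sorts of different days was pooled for each library. No source used here says that the pools came from separate crosses or what a replicate number stands for, so p-values measure the spread between these pools.

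Heat shock proteins are molecular chaperones. In heated cells the transcription factor Hsf trimerises and drives the Hsp70 genes, Hsp68 and the small heat shock protein genes, whose products hold and refold unfolded proteins, while the Hsc70 proteins, Hsp60 and Hsp83 (the fly Hsp90) fold proteins in unstressed cells. Several small heat shock genes, among them Hsp23, Hsp26, Hsp27 and Hsp22, are known to be switched on in normal development by the steroid hormone ecdysone as well as by heat.

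Library totals ran from 22294940 to 35510575 counts, and the members together took 1.39% to 2.62% of them. Levels are given in CPM, the counts of a gene relative to its library's total scaled by a TMM factor, and a gene was called changed at an adjusted p below 0.05 in edgeR's quasi-likelihood test with Benjamini-Hochberg adjustment over the 10834 genes tested. Eye-antennal disc markers (10 genes, among them eya, so, dac and Dll) were present in every genotype, and no listed marker of blood cells, fat body, muscle, salivary gland or glia was at 0 in any group.

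Per kilobase of exon, Hsc70-4 had the highest level of the members (mean of 2160 CPM per kb over all 18 libraries), ahead of Hsp23 with 1375, Hsp27 with 1364 and Hsp83 with 1189.7 CPM per kb. Hsc70-4 is the main cytosolic Hsc70. Of the 25 members 21 were tested. The other 4, Hsc70-1, Hsp60B, Hsp60C and Hsp60D, had 36, 2, 2 and 11 counts in all 18 libraries together and are not described further.

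The highest library stood at 163 to 199 times the lowest for the 4 Hsp70B genes, at 103 times for Hsp67Bc and at 66.9 and 65.8 times for Hsp70Aa and Hsp70Ab. The Hsp70 spread lay within genotypes, between libraries of different replicate number. Summed over the 6 genes, Hsp70 stood at 6143, 896 and 663 CPM in replicates 1, 2 and 3 of scrib, at 2909, 350.1 and 839 CPM in those of fos and at 4784, 3382 and 172 CPM in those of CtBP. The sums were 5325, 739.6 and 662 CPM in scrib fos, 1848, 101 and 56.9 CPM in CtBP scrib and 7209.8, 75.1 and 810.3 CPM in control. Replicate 1 was the highest library in all 6 genotypes, and replicate 2 of CtBP was the highest of the other libraries, followed by replicate 2 of scrib at 896 CPM. Between replicates 2 and 3 there was no common order: replicate 2 was the higher one in 4 of the 6 genotypes.

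**Figure D1:**
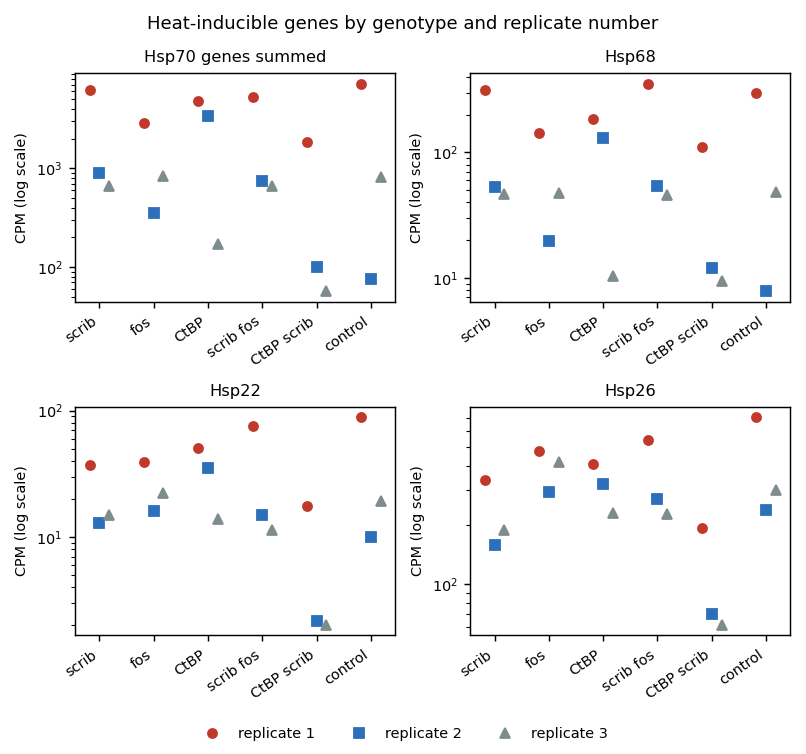
Summed Hsp70, Hsp68, Hsp22 and Hsp26 in CPM (log scale) for each library, with the genotypes along the horizontal axis and symbols for replicate numbers 1, 2 and 3. In every genotype and every panel replicate 1 is the highest library, by 2.69 to 23.4 times the mean of replicates 2 and 3 for summed Hsp70.

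Replicate 1 over the mean of replicates 2 and 3 was 23.4 for summed Hsp70 in CtBP scrib, 7.60 in scrib fos, 7.88 in scrib, 2.69 in CtBP, 4.89 in fos and 16.3 in control. Hsp68, an inducible relative of Hsp70, followed the same libraries. It had 316, 53.2 and 47.1 CPM in replicates 1, 2 and 3 of scrib, 143, 19.6 and 47.2 CPM in fos, 186, 129.6 and 10.4 CPM in CtBP, 354, 53.6 and 45.9 CPM in scrib fos, 111, 11.9 and 9.46 CPM in CtBP scrib and 296, 7.83 and 48.7 CPM in control. Its replicate 1 stood at 2.65 to 10.5 times the mean of the other 2 libraries, and replicate 2 of CtBP was again the highest library outside replicate 1.

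Among the small heat shock genes Hsp22, whose product resides in mitochondria, and Hsp26 showed the same order with smaller ratios. Hsp22 in replicate 1 was 2.04 to 8.46 times the mean of replicates 2 and 3, and its highest library was control replicate 1 at 89.0 CPM, against 9.99 and 19.2 CPM in control replicates 2 and 3. The same ratio was 1.33 to 2.92 for Hsp26, 1.16 to 4.56 for Hsp67Bc and 1.06 to 1.53 for Hsp23, each with replicate 1 highest in all 6 genotypes. Hsp27 and Hsp67Ba were highest in replicate 1 in 4 genotypes each. Of the constitutive chaperones, Hsp83 was highest in replicate 1 in 5 genotypes (ratios of 0.973 to 1.10) and Hsc70-5 in 4 (0.989 to 1.05). The ratios were 0.908 to 1.02 for Hsc70-4, 0.887 to 1.05 for Hsp60A and 0.954 to 1.49 for Hsc70-2, which were highest in replicate 1 in 1, 3 and 3 genotypes.

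In a fit of genotype plus replicate number, replicate 1 exceeded the mean of replicates 2 and 3 by a log2 fold change of 3.36 for Hsp70Bbb (SE 0.70, edgeR adjusted p = 0.215), 2.68 for Hsp70Aa (SE 0.57, adjusted p = 0.230), 2.64 for Hsp68 (SE 0.48, adjusted p = 0.144), 1.88 for Hsp22 (SE 0.30, adjusted p = 0.0877) and 1.01 for Hsp26 (SE 0.16, adjusted p = 0.0877). No member passed the threshold in this test, where 0.0185% of all genes did, while 13 of the 21 members and 793 of the 10834 genes had an unadjusted p below 0.05. DESeq2 called 11 members, the 6 Hsp70 genes, Hsp68, Hsp22, Hsp26, Hsp23 and Hsp67Bc, among 28 of all 10834 genes. Across fits that each left out 1 library, edgeR called 0 to 8 members. The 8 came without CtBP replicate 2, the library highest in Hsp70 outside replicate 1, among 14 of all 11006 genes tested. That fit was picked from these same values and is a description. By size alone, the 6 Hsp70 genes, Hsp68 and Hsp22 held the first 8 places among the 7174 genes with a mean of at least 10 CPM, and Hsp26 was in the tenth. The ninth was CG4456, which shares its reads with Hsp22. That replicate 1 was high in Hsp70 was known from earlier work on these data, so its direction is a description here.

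Cell type markers were set beside the replicate numbers in the same way. The median log2 fold change of replicate 1 over the others was 0.03 for the disc markers, 0.01 for muscle, 0.04 for glia and -0.25 for blood cells. It was 1.26 for the 6 fat body markers, whose summed level was only 2.56 to 55.6 CPM across libraries. For the 4 tested salivary gland markers, also low in level, it was 0.34. The part of these cell types in the replicate differences of the members was not tested. Replicate 2 against replicate 3 gave no call among the members by edgeR or DESeq2 and no unadjusted p below 0.05, beside 0% of all genes called and 371 genes at an unadjusted p below 0.05.

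Of the other genes that heat is known to induce, those named here had smaller estimates than the Hsp70 genes, Hsp68, Hsp22, Hsp26 and Hsp67Bc (0.77). DnaJ-1, stv and lncRNA:Hsromega had larger estimates than the members Hsp23 (0.32), Hsp67Ba (0.14) and Hsp27 (0.12). They were not typical of their list: over all 8 genes listed as heat-inducible the median was 0.11, beside -0.002 over all genes. l(2)efl, also on that list, had 0.19 (SE 0.14). EdgeR called neither these genes nor any member in this contrast. DnaJ-1, the Hsp40 partner of Hsp70, had a replicate 1 log2 fold change of 0.64 (SE 0.10, edgeR adjusted p = 0.0877). The nuclear noncoding RNA lncRNA:Hsromega had 0.39 (SE 0.14, adjusted p = 0.623), and the Hsp70 co-chaperone stv, the fly BAG3, had 0.40 (SE 0.12, adjusted p = 0.492). Hsf itself had 0.05 (SE 0.03, adjusted p = 0.674).

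The 6 Hsp70 genes lie in 2 places on 3R, Hsp70Aa and Hsp70Ab as an inverted pair at chr3R:11954163-11960909 and Hsp70Ba, Hsp70Bbb, Hsp70Bb and Hsp70Bc at chr3R:12465453-12511461 (dm6). The sources used here do not state how reads matching several copies were counted, so the split between copies is uncertain, and the copies are not independent of each other. Hsp70Aa had 0.949 to 0.981 times the counts of Hsp70Ab in every library. The A pair took 23.98% to 34.9% of Hsp70 counts in replicate 1 libraries and 25.2% to 51.05% in the others, and control replicate 1, the library with most Hsp70, had the lowest A share.

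**Figure D2:**
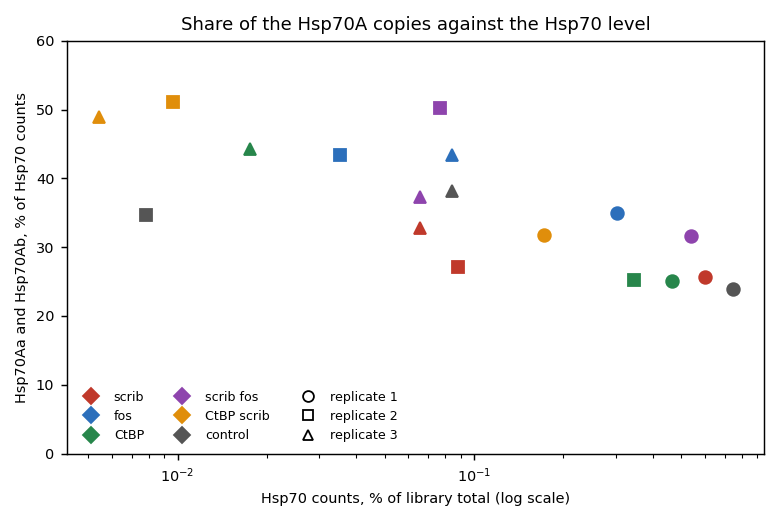
Share of Hsp70 counts assigned to Hsp70Aa and Hsp70Ab (vertical axis, %) against Hsp70 counts as a percentage of the library total (horizontal axis, log scale), 1 point per library, with colours for genotypes and symbols for replicate numbers. Points on the right, with most Hsp70, have A shares of 23.98% to 34.9% where they are replicate 1, and the highest share, 51.05%, is in CtBP scrib replicate 2.

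No genotype difference in the inducible Hsp70 genes or Hsp68 was called in the model of genotype alone, in which the replicate differences are part of the error. For the 6 Hsp70 genes the standard errors of the comparisons with control were 1.53 to 1.92 on the log2 scale, and for Hsp68 1.43 to 1.49. The log2 fold changes in scrib ran from -0.10 (Hsp70Bc) to -0.02 (Hsp70Ab), and that of Hsp68 was 0.24, with adjusted p values of 0.905 to 0.994. In CtBP scrib, the genotype with the lowest mean of every Hsp70 gene, they ran from -2.17 to -1.62 for Hsp70 and stood at -1.40 for Hsp68 (adjusted p = 0.330 to 0.449). No Hsp70 gene and not Hsp68 was called in any of the 12 genotype tests of this model by edgeR, and DESeq2 called none of them either. With a replicate block, edgeR called Hsp70Ba, Hsp70Bb, Hsp70Bbb and Hsp70Bc lower in CtBP scrib against CtBP (adjusted p = 0.0307 to 0.0362).

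In scrib mutant discs 4 small heat shock genes were lower and most constitutive chaperones higher than in control. In scrib against control 10 of the 21 tested members were called, 6 higher and 4 lower, against 53.5% of all genes called (27.8% higher and 25.7% lower). The 4 lower members were Hsp23, Hsp27, Hsp67Ba and Hsp67Bc, and the 6 higher ones were Hsc70-2, Hsc70-4, Hsc70-5, Hsp60A, Hsp83 and Hsp110. The share called is therefore no higher than in the table as a whole, and the median log2 fold change of the members was -0.08, beside 0.01 over all genes. Without replicate 1 of every genotype the count was 10, among 5396 of all 10876 genes.

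**Figure D3:**
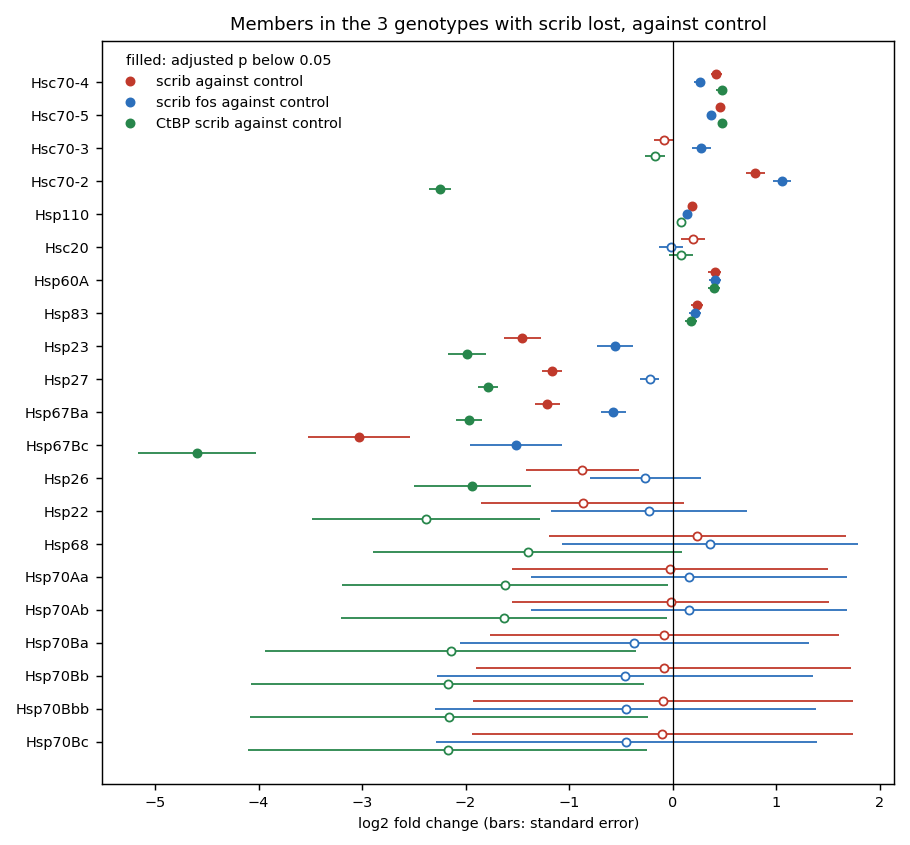
Log2 fold changes of the 21 tested members against control in scrib (red), scrib fos (blue) and CtBP scrib (green), with bars for the standard error and filled points for an adjusted p below 0.05. The small heat shock genes lie to the left, from -1.16 to -3.03 in scrib for the 4 called ones, most constitutive chaperones lie to the right in scrib (0.80 for Hsc70-2, but -0.08 for Hsc70-3), Hsc70-2 lies at -2.25 in CtBP scrib, and Hsp70 and Hsp68 have bars that cross 0 in scrib and scrib fos.

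The small heat shock proteins are oligomeric chaperones that bind unfolding proteins without using ATP. All 6 members of this kind lie within 14184 bases of 3L (chr3L:9371511-9385694, dm6), in the order Hsp67Bc, Hsp22, Hsp26, Hsp67Ba, Hsp23 and Hsp27. Hsp27 had 1432, 1258 and 1288 CPM in scrib and 936, 752 and 897 CPM in CtBP scrib, with 2603, 2502 and 2537 CPM in scrib fos. It had 3118, 2829 and 3307 CPM in fos, 2471, 2586 and 2629.8 CPM in CtBP and 3481, 2807 and 2628 CPM in control. All scrib and CtBP scrib libraries lay below all libraries of the other 4 genotypes, and those of CtBP scrib lay below those of scrib.

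Hsp27 fell by 1.16 in scrib on the log2 scale (SE 0.09, edgeR adjusted p = 7.46e-09) and by 1.79 in CtBP scrib (SE 0.10, adjusted p = 1.4e-11) against control. In scrib fos its log2 fold change was -0.22 (SE 0.09, adjusted p = 0.0584), and it passed the threshold in DESeq2 (adjusted p = 0.0495). In fos it was 0.05 and in CtBP -0.21, neither called. In scrib fos against scrib Hsp27 rose by 0.94 (SE 0.09, adjusted p = 2.34e-07), and the 3 scrib fos libraries lay above all 3 of scrib.

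Hsp23 had 709, 557 and 579 CPM in scrib, 553, 339 and 382 CPM in CtBP scrib and 1307, 1090.4 and 1039 CPM in scrib fos. It had 1934, 1728 and 1918 CPM in fos, 1659, 1579.8 and 1453 CPM in CtBP and 2028, 1401 and 1622 CPM in control. The 3 scrib fos libraries lay above every scrib library and below every control library. Against control Hsp23 fell by 1.45 in scrib (SE 0.18, edgeR adjusted p = 1.1e-05), by 1.99 in CtBP scrib (SE 0.18, adjusted p = 3.98e-07) and by 0.56 in scrib fos (SE 0.18, adjusted p = 0.0193). The last call was lost without control replicate 1 (adjusted p = 0.0960), scrib fos replicate 2 (0.0638) or scrib fos replicate 3 (0.0870).

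Hsp67Ba is counted together with the antisense gene asRNA:CR43481, which had 91.0% to 95.1% of the counts of Hsp67Ba in every library, and without a known strand setting the 2 cannot be told apart. Its counts gave 107, 92.6 and 89.7 CPM in scrib, 64.6, 48.5 and 58.3 CPM in CtBP scrib, 153, 148 and 149 CPM in scrib fos and 267, 207 and 196 CPM in control. Each of the 3 mutant genotypes lay wholly below control. Hsp67Ba fell by 1.21 in scrib (SE 0.12, edgeR adjusted p = 6.94e-07), by 1.97 in CtBP scrib (SE 0.12, adjusted p = 2.35e-09) and by 0.57 in scrib fos (SE 0.12, adjusted p = 0.00115).

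Hsp67Bc, whose product is known in flies to promote autophagy together with stv, had the largest fold change of the members in scrib. It stood at 21.4, 11.7 and 6.65 CPM in scrib, 8.95, 2.51 and 1.41 CPM in CtBP scrib, 57.9, 33.6 and 22.7 CPM in scrib fos and 146, 83.6 and 94.2 CPM in control. All libraries of the 3 genotypes lacking scrib were below all control libraries, and all CtBP scrib libraries but replicate 1 were below all of scrib. It fell by 3.03 in scrib (SE 0.49, edgeR adjusted p = 0.000187) and by 4.59 in CtBP scrib (SE 0.57, adjusted p = 1.33e-05). In scrib fos it fell by 1.51 (SE 0.44, adjusted p = 0.014), a call lost without control replicate 1 (adjusted p = 0.0592), without scrib fos replicate 3 (0.0573) or in a fit of these 2 groups alone (0.0625).

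**Figure D4:**
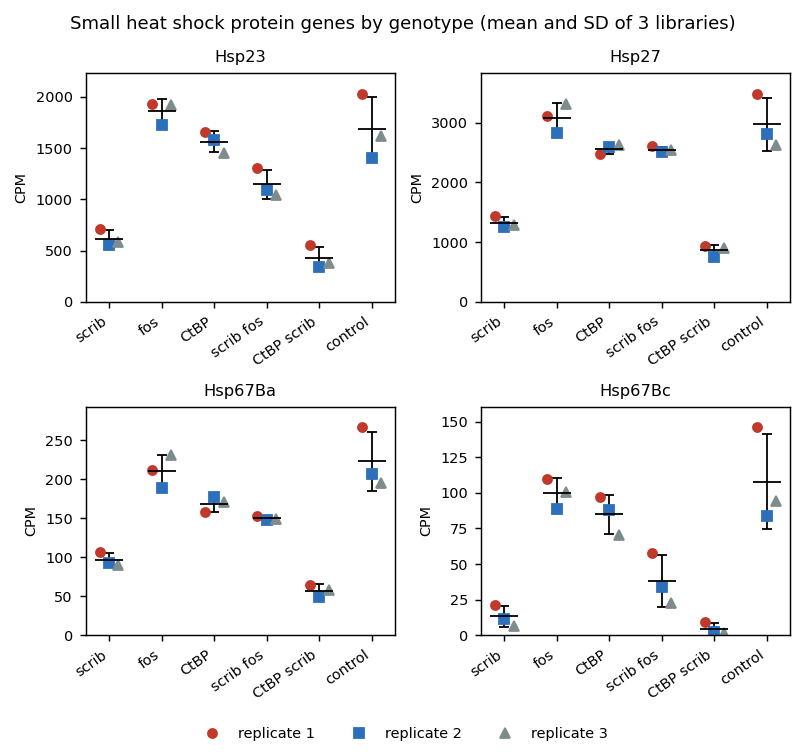
Hsp23, Hsp27, Hsp67Ba and Hsp67Bc in CPM for each library, with the genotypes along the horizontal axis, symbols for replicate numbers and a bar at each genotype's mean. In all 4 panels CtBP scrib is the lowest genotype and scrib the next, scrib fos lies between scrib and control, and the Hsp27 mean is 1326 CPM in scrib, 2547 CPM in scrib fos and 2972 CPM in control.

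The remaining 2 genes of the cluster, Hsp26 and Hsp22, were highest in replicate 1 in all 6 genotypes, as were the Hsp70 genes and Hsp68. Hsp67Bc was so too, with replicate 1 at up to 4.56 times the mean of replicates 2 and 3 (in CtBP scrib). Hsp26 had 336, 158 and 187 CPM in scrib, 193, 70.4 and 61.9 CPM in CtBP scrib and 706, 238 and 302 CPM in control, so that scrib replicate 1 exceeded 2 control libraries and only CtBP scrib lay wholly below control. It fell by 1.93 in CtBP scrib against control (SE 0.56, edgeR adjusted p = 0.00979), a call lost without control replicate 1 (adjusted p = 0.0588) and in a fit of the 2 groups alone (0.0850). In scrib its log2 fold change was -0.87 (SE 0.54, adjusted p = 0.203), and it was called there only with a replicate block (edgeR adjusted p = 0.0248). Hsp22 had 17.7, 2.16 and 2.02 CPM in CtBP scrib against 89.0, 9.99 and 19.2 CPM in control, a log2 fold change of -2.38 (SE 1.10, adjusted p = 0.081). It passed the threshold in DESeq2 (0.0252) and in edgeR without replicate 1 of every genotype (0.0164). Counts of Hsp22 differ by at most 3 in any library from those of CG4456, which overlaps it on the same strand, so both names stand for the same reads.

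Hsp27, Hsp23, Hsp67Ba and Hsp67Bc were higher after losing fos together with scrib than after losing scrib alone. In scrib fos against scrib 7 of 21 members were called, 6 higher and 1 lower, against 37.8% of all genes (17.6% higher and 20.2% lower). Besides Hsp27, the higher members were Hsp23 with a log2 fold change of 0.90 (SE 0.18, edgeR adjusted p = 0.00113), Hsp67Ba with 0.64 (SE 0.12, adjusted p = 0.000634), Hsp67Bc with 1.52 (SE 0.50, adjusted p = 0.0289), Hsc70-3 and Hsc70-2. Hsp26 had 0.61 (SE 0.54, adjusted p = 0.426) and Hsp22 0.64 (SE 0.98, adjusted p = 0.663). The call of Hsp67Bc was lost without scrib fos replicate 1 (adjusted p = 0.127), scrib replicate 2 (0.0835) or scrib replicate 3 (0.102) and in a fit of the 2 groups alone (0.145). Without scrib replicate 3 the count was 4. Without replicate 1 of every genotype it was 6, among 3856 of all 10876 genes.

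The interaction of scrib and fos, which asks whether the scrib effect in a fos background differs from that in the control background, was called for 3 members, all positive, against 23.2% of all genes (10.6% positive). They were Hsp27 with 0.89 on the log2 scale (SE 0.13, edgeR adjusted p = 6.41e-05), Hsp67Ba with 0.72 (SE 0.17, adjusted p = 0.00604) and Hsp23 with 0.75 (SE 0.25, adjusted p = 0.0433). The call of Hsp23 was lost under 12 of the alternatives, 11 of which left out 1 library (adjusted p = 0.0524 to 0.0983). Hsp67Bc had the largest estimate, 1.63 (SE 0.65), and did not pass (adjusted p = 0.0967). It passed in edgeR with a replicate block (0.0252), without replicate 1 of every genotype (0.0487) and without scrib replicate 1 (0.0430). In scrib fos against fos the same 4 genes fell, Hsp23 by 0.70 (SE 0.18, adjusted p = 0.00517), Hsp27 by 0.28 (SE 0.09, adjusted p = 0.021), Hsp67Ba by 0.49 (SE 0.12, adjusted p = 0.00352) and Hsp67Bc by 1.39 (SE 0.44, adjusted p = 0.0208), among 11 members called (7 higher and 4 lower) where 47.4% of all genes were (23% higher and 24.4% lower). In that comparison the call of Hsp27 was lost without fos replicate 1 (adjusted p = 0.0633), fos replicate 3 (0.104), scrib fos replicate 2 (0.0701) or scrib fos replicate 3 (0.0888) and with no filter (0.0528). The call of Hsp67Bc was lost without fos replicate 1 (0.0558), scrib fos replicate 2 (0.0649) or scrib fos replicate 3 (0.0802).

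Losing CtBP together with scrib gave lower Hsp27 and Hsp67Ba than losing scrib alone. In CtBP scrib against scrib 3 members were called, all lower, against 18.7% of all genes (9.57% higher and 9.14% lower): Hsp27 fell by 0.62 (SE 0.09, edgeR adjusted p = 7.65e-05), Hsp67Ba by 0.76 (SE 0.12, adjusted p = 0.000358) and Hsc70-2 as given below. Hsp23 had -0.53 (SE 0.18, adjusted p = 0.0512), Hsp67Bc -1.56 (SE 0.63, adjusted p = 0.116) and Hsp26 -1.06 (SE 0.55, adjusted p = 0.232). Without replicate 1 of every genotype 6 were called, among 1875 of all 10876 genes, with Hsp23 (adjusted p = 3.84e-05), Hsp67Bc (0.0282) and Hsp26 (0.0137) added. Against CtBP, CtBP scrib had 10 members called, 5 higher and 5 lower, beside 55.5% of all genes (28.9% higher and 26.6% lower), and the 5 lower were Hsp23, Hsp26, Hsp27, Hsp67Ba and Hsp67Bc with log2 fold changes of -1.56 to -4.25. The call of Hsp26 among them (adjusted p = 0.0306) was lost without CtBP replicate 1 (0.0860) or 2 (0.0603), without CtBP scrib replicate 2 (0.109) or 3 (0.110) and in a fit of the 2 groups (0.0890).

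The interaction of scrib and CtBP was called for no member by edgeR, against 10.5% of all genes (5.43% positive and 5.06% negative), with 1 member at an unadjusted p below 0.05 and 1 called by DESeq2. That member was Hsp27 (-0.41, SE 0.13, edgeR adjusted p = 0.0575, DESeq2 adjusted p = 0.0221). Without replicate 1 of every genotype edgeR called 3, Hsp23, Hsp27 and Hsp67Ba, all negative, among 1036 of all 10876 genes.

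Few members were called after loss of fos or CtBP alone. In fos no member was called by edgeR or DESeq2 and none had an unadjusted p below 0.05, beside 0.997% of all genes called (0.258% higher and 0.738% lower) and 829 genes at an unadjusted p below 0.05. In CtBP 2 members were called, both lower, beside 14.5% of all genes (7.46% lower). Hsp67Ba had 158, 178 and 171 CPM in CtBP, wholly below control, and fell by 0.40 (SE 0.12, edgeR adjusted p = 0.0343). That call was lost without CtBP replicate 1 (adjusted p = 0.131), CtBP replicate 3 (0.0657) or control replicate 1 (0.122), without replicate 1 of every genotype (0.217), without these and CtBP replicate 2 (0.421), with no filter (0.0566) and in a fit of the 2 groups (0.0796). The other was Hsc70-2.

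Markers of several cell types differed between the genotypes as well. The summed level of the 10 disc markers was 896 to 1067 CPM in scrib, 429 to 558 CPM in CtBP scrib and 1599 to 1737 CPM in scrib fos, against 1912 to 1988 CPM in control. The means of Hsp22, Hsp23, Hsp26, Hsp27, Hsp67Ba and Hsp67Bc had the same order of these genotypes. Of the 10 disc markers 9 were called lower in scrib and 10 in CtBP scrib, while 6 were lower and 2 higher in scrib fos. For these counts and those below, the shares of all genes lower were 25.7% in scrib, 28.3% in CtBP scrib and 24.5% in scrib fos. The shares higher were 27.8%, 31.1% and 22.1%. The 10 blood cell markers summed to 236 to 278 CPM in scrib, 186 to 198 CPM in CtBP scrib, 130 to 153 CPM in scrib fos and 450.2 to 629 CPM in control. Of these 10, 1 was called higher and 7 lower in scrib, and 9 lower in CtBP scrib and in scrib fos. Muscle markers (7 genes) summed to 1189 to 1240 CPM in scrib, 1379.8 to 1451 CPM in CtBP scrib and 787 to 859 CPM in scrib fos, against 876 to 914 CPM in control. They went both ways, with 3 called higher and 2 lower in scrib and 4 higher and 2 lower in CtBP scrib. In scrib fos 1 muscle marker was higher and 4 were lower. Glial markers (5 genes) summed to 331 to 339.7 CPM in scrib, 388 to 409 CPM in CtBP scrib, 237 to 261 CPM in scrib fos and 264 to 284 CPM in control. Of these 5, 3 were called higher and 2 lower in scrib and again in CtBP scrib, and 4 lower in scrib fos. Fat body markers (6 genes) summed to 2.56 to 8.91 CPM in scrib and 6.67 to 13.1 CPM in CtBP, both wholly below control at 15.96 to 47.0 CPM. Their sums in fos (7.29 to 55.6 CPM), scrib fos (4.70 to 34.4 CPM) and CtBP scrib (7.18 to 18.5 CPM) overlapped control, and 1 of the 6 was called lower in scrib and none in the other genotypes. Salivary gland markers (6 genes) summed to at most 5.91 CPM in any library, and of the 4 tested 4 were lower in scrib fos, 1 in scrib and 1 in CtBP scrib against control. The part of cell composition in the change of the small heat shock genes was not tested, and fewer cells of a type and less RNA per cell cannot be told apart in bulk samples.

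The constitutive chaperones Hsc70-4, Hsc70-5, Hsp60A and Hsp83 rose by modest amounts in all 3 genotypes lacking scrib. Hsc70-4, the most abundant member, had 6808, 6524 and 7147 CPM in scrib, 5711, 5818 and 6757 CPM in scrib fos and 6938, 7132 and 7175 CPM in CtBP scrib, against 5150.5, 5014 and 5096 CPM in control. Every library of the 3 genotypes lay above every control library, and fos (4939 to 5152 CPM) and CtBP (4937 to 5123 CPM) lay around control. Hsc70-4 rose by 0.42 on the log2 scale in scrib (SE 0.05, edgeR adjusted p = 1.07e-06), by 0.26 in scrib fos (SE 0.05, adjusted p = 0.000454) and by 0.48 in CtBP scrib (SE 0.05, adjusted p = 1.49e-07). Against scrib it was lower in scrib fos (-0.16, SE 0.05, adjusted p = 0.0196). That difference was not called without scrib fos replicate 1 (adjusted p = 0.102), scrib fos replicate 2 (0.119) or scrib replicate 3 (0.118), without replicate 1 of every genotype (0.249), without these and CtBP replicate 2 (0.348), with no filter (0.118) or in a fit of the 2 groups (0.179).

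The mitochondrial matrix chaperones moved in the same way. Hsc70-5, the mitochondrial Hsp70, had 336, 318 and 323 CPM in scrib, 306, 297 and 315 CPM in scrib fos and 328, 331 and 332 CPM in CtBP scrib, against 238, 235 and 237 CPM in control. It rose by 0.46 in scrib (SE 0.04, edgeR adjusted p = 4.77e-09), by 0.37 in scrib fos (SE 0.04, adjusted p = 2.33e-07) and by 0.48 in CtBP scrib (SE 0.04, adjusted p = 1.7e-09). Hsp60A, the mitochondrial chaperonin, averaged 534 ± 25.7 CPM in scrib, 535 ± 63.3 CPM in scrib fos and 532 ± 7.08 CPM in CtBP scrib, against 403 ± 5.33 CPM in control (SD, n = 3 each). Its log2 fold changes were 0.41, 0.41 and 0.40, each with a standard error of 0.06 (adjusted p = 1.18e-05, 1.77e-05 and 1.08e-05). Hsc20, the co-chaperone that serves iron-sulphur cluster assembly with Hsc70-5, was called in no comparison and had 4.29 to 6.43 CPM across all libraries.

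**Figure D5:**
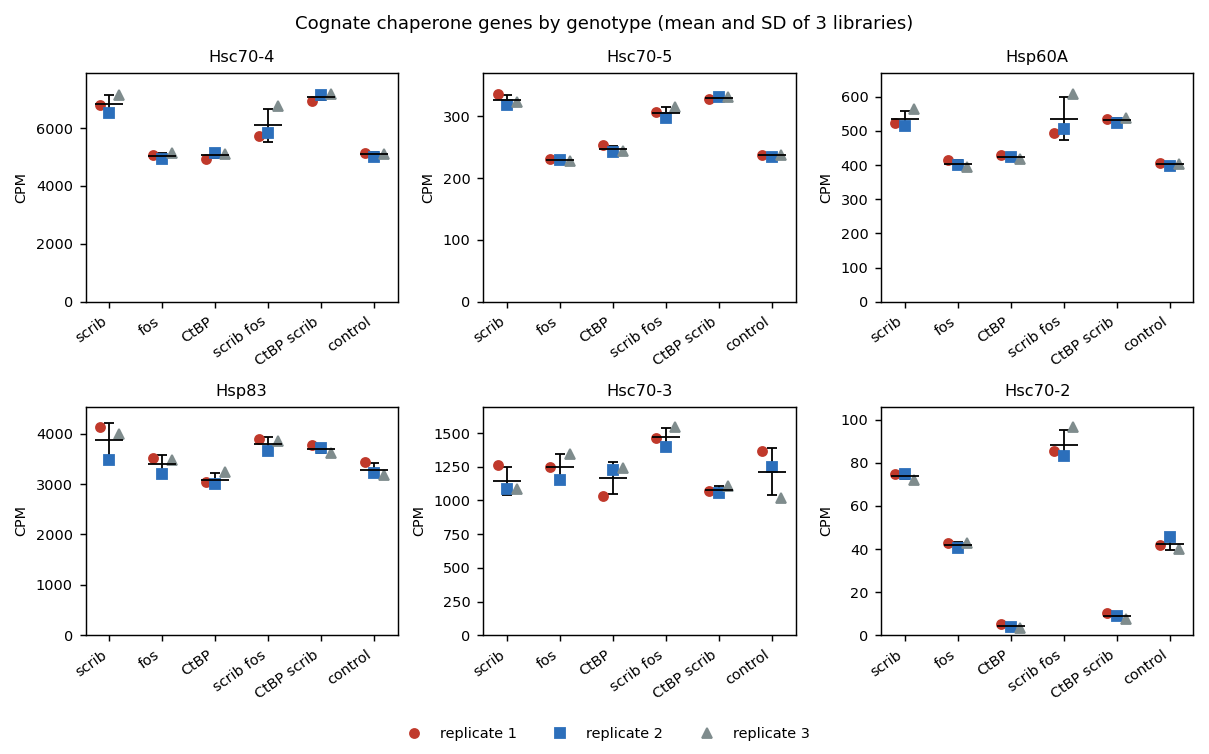
Hsc70-4, Hsc70-5, Hsp60A, Hsp83, Hsc70-3 and Hsc70-2 in CPM for each library, with the genotypes along the horizontal axis, symbols for replicate numbers and a bar at each genotype's mean. Hsc70-4, Hsc70-5 and Hsp60A lie above control in all 3 genotypes lacking scrib, and Hsc70-2 lies at 3.43 to 10.1 CPM in the 2 genotypes lacking CtBP, against 40.0 to 45.8 CPM in control.

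Hsp83, which matures kinases and steroid receptors, averaged 3864 ± 341 CPM in scrib, 3798 ± 132 CPM in scrib fos and 3702 ± 78.2 CPM in CtBP scrib, against 3275 ± 134 CPM in control (SD, n = 3 each). It rose by 0.24 in scrib (SE 0.06, edgeR adjusted p = 0.00176), by 0.21 in scrib fos (SE 0.06, adjusted p = 0.00516) and by 0.18 in CtBP scrib (SE 0.06, adjusted p = 0.0133). The last call was lost without CtBP scrib replicate 1 (adjusted p = 0.0566), without replicate 1 of every genotype and CtBP replicate 2 (0.0591) and with a filter of 5 CPM in 3 libraries (0.0660). Hsp110, a nucleotide exchange factor for Hsp70, rose by 0.19 in scrib (SE 0.04, adjusted p = 0.000951) and by 0.14 in scrib fos (SE 0.04, adjusted p = 0.0118), and in CtBP scrib its log2 fold change was 0.08 (SE 0.04, adjusted p = 0.0995).

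Hsc70-3, the endoplasmic reticulum chaperone BiP, had another pattern. It had 1466, 1399 and 1542 CPM in scrib fos, above every other library of the study, against 1266, 1086 and 1087 CPM in scrib and 1367, 1248 and 1022 CPM in control. It rose by 0.36 in scrib fos against scrib (SE 0.09, edgeR adjusted p = 0.00562) and by 0.28 against control (SE 0.09, adjusted p = 0.022). The call against control was lost without control replicate 3 (adjusted p = 0.0786) or scrib fos replicate 3 (0.0745). In scrib and CtBP scrib its log2 fold changes against control were -0.08 and -0.17 (adjusted p = 0.501 and 0.133).

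Over the 3 genotypes lacking scrib, the count of called members was 10 in each against control. In scrib fos 7 were higher and 3 lower, beside 46.6% of all genes (22.1% higher and 24.5% lower), and in CtBP scrib 4 were higher and 6 lower, beside 59.4% of all genes (31.1% higher and 28.3% lower). In scrib fos the lower ones were Hsp23, Hsp67Ba and Hsp67Bc. In CtBP scrib they were those 3 with Hsp26, Hsp27 and Hsc70-2. Any difference between the 6 genotypes was called for 11 members, beside 74.9% of all genes, and the 10 members it left out were the 6 Hsp70 genes, Hsp68, Hsp22, Hsp26 and Hsc20.

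Hsc70-2 stood apart from the other members in both genotypes lacking CtBP. It had 5.35, 3.74 and 3.43 CPM in CtBP and 10.1, 8.89 and 7.62 CPM in CtBP scrib. It had 75.0, 74.6 and 72.1 CPM in scrib, 85.7, 83.1 and 96.4 CPM in scrib fos, 42.7, 40.6 and 42.7 CPM in fos and 41.6, 45.8 and 40.0 CPM in control. The libraries fell into 3 levels with no overlap: CtBP and CtBP scrib lowest, fos and control in the middle, scrib and scrib fos highest. Hsc70-2 belongs to the Hsc70 family by sequence, and its specific role is not well known.

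Against control Hsc70-2 fell by 3.34 in CtBP (SE 0.12, edgeR adjusted p = 3.84e-13) and by 2.25 in CtBP scrib (SE 0.11, adjusted p = 2.98e-12), and it rose by 0.80 in scrib (SE 0.09, adjusted p = 6.83e-07) and by 1.06 in scrib fos (SE 0.09, adjusted p = 3.39e-08). In CtBP it had the 13th most negative fold change of all tested genes and the 4th among those with a mean of at least 10 CPM. The scrib effect was present without CtBP too: in CtBP scrib against CtBP it rose by 1.09 (SE 0.13, adjusted p = 1.58e-06), and the interaction of scrib and CtBP was 0.29 (SE 0.16, adjusted p = 0.319). In CtBP scrib against scrib it fell by 3.05 (SE 0.11, adjusted p = 6.32e-13). Its difference of 0.26 between scrib fos and scrib (SE 0.09, adjusted p = 0.0269) was lost without scrib fos replicate 3 (0.115), scrib replicate 2 (0.0513) or scrib replicate 3 (0.0715).

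Hsc70-2 lies at chr3R:13044759-13047388, 18484 bases from CtBP (chr3R:13011649-13026275, dm6), on the chromosome arm that carried the CtBP87De-10 allele. Of 24 genes of the table within 50 kb of Hsc70-2, 19 were tested. In CtBP against control 4 of them were lower and 2 higher, and the higher ones, CG17327 and CG44194, had the same counts under 2 names (log2 fold change 0.56). Among the lower ones CG31157, which starts 343 bases past the end of Hsc70-2, fell by 3.32 (SE 0.12, edgeR adjusted p = 2.07e-14), with 1.41 ± 0.287 CPM in CtBP and 14.2 ± 0.231 CPM in control (SD, n = 3 each).

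CG7966, 2010 bases away, fell by 1.55 (SE 0.11, edgeR adjusted p = 2.39e-09), CtBP itself by 1.52 (SE 0.04, adjusted p = 7.04e-16) and CG11656, on the far side of CtBP, by 1.57 (SE 0.14, adjusted p = 4.91e-08). The 6 tested genes that lie wholly between CtBP and Hsc70-2 were not called, ry (log2 fold change 0.01, SE 0.12) and CG11670 (-0.20, SE 0.26), the nearest to Hsc70-2, among them. Both genotypes lacking CtBP carried the CtBP87De-10 allele, and an effect of the allele cannot be told apart from one of other sequence linked to it on 3R.

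The chaperone systems that work with the members were read from lists chosen with earlier results of these data known, so their counts are descriptions. Of all genes, 27.8% were called higher in scrib, 22.1% in scrib fos and 31.1% in CtBP scrib against control, and 25.7%, 24.5% and 28.3% lower. The chaperonin and prefoldin list held 14 subunits of the CCT ring and of prefoldin, which fold actin and tubulin, and CG11267, the Hsp10 partner of Hsp60A in mitochondria. All 15 genes were higher in scrib, in scrib fos and in CtBP scrib than in control, with median log2 fold changes of 0.42, 0.24 and 0.40 (0.01, -0.02 and 0.01 over all genes). In scrib fos against scrib 12 of the 15 were lower (median -0.18), beside 20.2% of all genes. CCT7, a subunit of the chaperonin ring, averaged 601 ± 16.2 CPM in scrib, 493 ± 27.5 CPM in scrib fos, 601 ± 8.67 CPM in CtBP scrib and 425 ± 6.62 CPM in control (SD, n = 3 each). The prefoldin subunit Pfdn2 averaged 135 ± 7.82 CPM in scrib and 94.1 ± 1.77 CPM in control, a log2 fold change of 0.53 (SE 0.05, edgeR adjusted p = 8.47e-09).

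Of 9 partners and paralogs of Hsp90, among them the paralogs Gp93 and Trap1, 6 were higher in scrib (27.8% of all genes), 7 in scrib fos (22.1%) and 5 in CtBP scrib (31.1%), and none was lower in any of the 3. Cdc37, the co-chaperone that brings kinases to Hsp90, rose by 0.23 in scrib (SE 0.05, edgeR adjusted p = 0.000723), and Stip1, which links Hsp70 to Hsp90, by 0.27 (SE 0.04, adjusted p = 1.6e-05). Of 6 mitochondrial chaperones and proteases 5 were higher in scrib, 3 in scrib fos and 4 in CtBP scrib. Among them were CG11267, which is also counted above, with 0.42 (SE 0.05, adjusted p = 8.1e-07 in scrib), and Roe1, the nucleotide exchange factor of Hsc70-5, with 0.44 (SE 0.08, adjusted p = 4.48e-05 in scrib). Of 13 Hsp70 co-chaperones 5 were higher in each of these genotypes, while 2 were lower in scrib, 2 in scrib fos and 1 in CtBP scrib, beside 27.8%, 22.1% and 31.1% of all genes higher in scrib, scrib fos and CtBP scrib.

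Genes of endoplasmic reticulum folding and the unfolded protein response, the pathway to which Hsc70-3 belongs, were higher for 6 of 15 in scrib (27.8% of all genes), 10 in scrib fos (22.1%) and 4 in CtBP scrib (31.1%, so that the share of the list was not above that of all genes), with none lower. In scrib fos against scrib 7 were higher and 2 lower, beside 17.6% and 20.2% of all genes. ERp60, a disulphide isomerase, had the pattern of Hsc70-3, with log2 fold changes of 0.34 in scrib fos (SE 0.05, edgeR adjusted p = 1.9e-05) and 0.03 in scrib (SE 0.05, adjusted p = 0.646) against control. crc, the fly ATF4, rose by 0.35 in scrib (SE 0.04, adjusted p = 7.24e-07) and PEK, the kinase upstream of it, by 0.27 (SE 0.05, adjusted p = 7.88e-05).

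The other small heat shock proteins did not move as one. Of 3 tested, CG14207 rose in scrib by 0.38 (SE 0.05, edgeR adjusted p = 8.33e-07) and l(2)efl and CG7409 fell, by 1.52 (SE 0.24, adjusted p = 4.88e-05) and 1.49 (SE 0.46, adjusted p = 0.0102). l(2)efl averaged 3.29 ± 1.00 CPM in scrib and 9.42 ± 1.45 CPM in control, and CG7409 0.151 ± 0.0740 CPM in scrib and 0.436 ± 0.182 CPM in control (SD, n = 3 each). l(2)efl, which lies outside the 67B cluster, also fell in scrib fos, by 1.57 (SE 0.24, adjusted p = 4.92e-05), and its log2 fold change between scrib fos and scrib was -0.05 (SE 0.26, adjusted p = 0.911). CG14207 fell by 0.35 in scrib fos against scrib (SE 0.05, adjusted p = 4.58e-06). Hsf averaged 100 ± 4.66 CPM in scrib, 97.8 ± 5.93 CPM in scrib fos, 95.2 ± 1.80 CPM in CtBP scrib and 105 ± 4.15 CPM in control, and it was called in CtBP scrib against control (-0.14, SE 0.05, adjusted p = 0.0162).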

How the data were processed

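RNA of eye-antennal discs was sequenced in 18 libraries, 3 of each of 6 genotypes, grouped and numbered by the sample titles. Per the labels' protocols, sorted cells were lysed in Trizol and TruSeq RNA libraries were made from pools of RNA. The authors deposited unnormalized counts of reads per gene, made with Subread and featureCounts on dm6, per the submitters' processing notes, which also name edgeR. The sources used here give no versions, sort gate or settings for strand, multiple matches and overlaps.

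The count table was tested in R 4.3.3 with edgeR 4.0.16 (filterByExpr, TMM, robust glmQLFit) in 1 model over 18 libraries with a coefficient per genotype. It kept 10834 genes and removed 6695, with 12 residual degrees of freedom and a biological coefficient of variation of 8.88%. Contrasts were tested 2-sided with glmQLFTest, and a second model of genotype plus replicate number compared replicate numbers. The standard error is the log2 fold change divided by the square root of F. CPM used TMM-scaled totals and exon lengths came from the Ensembl annotation of dm6. The fit was tested on simulated data.

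Members, gene lists and tests were chosen with earlier results of these data known. Every member with a mean of at least 1 CPM was described, and of each list the counts and up to 4 members with the smallest p. Outside that rule, stv and lncRNA:Hsromega were named as well. Alternatives were DESeq2 1.42.0 and its size factors, 2 other filters, only the compared groups, a replicate block, summed Hsp70 and leaving out libraries. Of the listed genes 106 were matched and 2, l(2)tid and unc-45, were not.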

Additional observations from a re-analysis of the deposited data

Results flagged for a closer look

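For 3 small heat shock genes the scrib effect in a fos background differed from that in the control background. They were the 3 of 21 tested members called in this interaction, beside 23.2% of all genes, so the share of the members was not above that of all genes. The interaction of scrib and fos was 0.8883 on the log2 scale for Hsp27, 0.719 for Hsp67Ba and 0.754 for Hsp23 (edgeR's quasi-likelihood test, adjusted p = 6.41e-05, 0.00604 and 0.0433). For Hsp27 the log2 fold change was -0.28 in scrib fos against fos and -1.16 in scrib against control. For Hsp67Ba these were -0.49 and -1.21, and for Hsp23 -0.70 and -1.45. The call of Hsp23 was lost under 12 alternatives. Counts of Hsp67Ba cannot be told apart from those of the antisense gene asRNA:CR43481.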

How the results depend on the processing

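No direction of a called value was reversed under any alternative. Of 66 called member comparisons 50 were called under every alternative and 16 were lost under at least 1, and of 207 uncalled ones 36 were called under at least 1. The replicate numbers were not taken to pair the libraries, since not every pair with the same number correlated over 0.1: over all genes the correlations between deviations from the genotype means were -0.159 to 0.205 (15 of 45 over 0.1), against -0.226 to 0.207 for different numbers, and 10 of 18 libraries were closest to their own number (7 of 18 without the members). Among the members, replicate 1 was highest in all 6 genotypes for 11 genes, and the replicate block changed 15 member calls, 14 gained and 1 lost. With a replicate block, members called in CtBP scrib against scrib went up to 6 (3 without the block), among 2049 of all 10834 genes (2027 without). In the interaction of scrib and CtBP they went up to 2 (0 without), among 1133 genes (1136 without). With the block, 4 Hsp70B genes were called lower in CtBP scrib against CtBP (edgeR adjusted p = 0.0307 to 0.0362), where 6031 genes were called.

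CtBP against control had 1 member called in place of 2 with no filter (1416 of 16453 genes called) and in a fit of only the 2 groups (1420 of 10476). The same held without replicate 1 of every genotype (1176 of 10876), while the main fit called 1566 of 10834 genes. CtBP scrib against scrib had 6 in place of 3 with DESeq2 (2041 of 10834 genes called) and 5 with a filter of 5 CPM in 3 libraries (1828 of 8223). It had 6 without replicate 1 of every genotype (1875 of 10876), and the main fit called 2027 of 10834 genes. The interaction of scrib and CtBP had 1 in place of 0 with DESeq2 (1191 of 10834 genes called) and 3 without replicate 1 (1036 of 10876). The main fit called 1136 of 10834 genes there. The interaction of scrib and fos had 5 in place of 3 without replicate 1 (2216 of 10876 genes called, 2517 of 10834 in the main fit). Replicate 1 against replicates 2 and 3 had 11 in place of 0 with DESeq2 (28 of 10834 genes called, 2 in the main fit). The fits without replicate 1 and CtBP replicate 2 were added after the data were seen. The cause was not tested.

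Leaving out 1 library at a time gave 10 to 10 members called in scrib, 0 to 0 in fos, 1 to 3 in CtBP, 7 to 11 in scrib fos and 10 to 11 in CtBP scrib against control. It gave 4 to 7 in scrib fos against scrib, 3 to 7 in CtBP scrib against scrib, 8 to 11 in scrib fos against fos and 9 to 11 in CtBP scrib against CtBP. It gave 2 to 5 for the interaction of scrib and fos, 0 to 2 for that of scrib and CtBP, 11 to 12 for any difference, 0 to 8 for replicate 1 against the others and 0 to 0 for replicate 2 against 3. The 4 members not tested had at most 36 counts in all libraries together.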
